A study of Mus musculus with 10 samples.

Results

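The SWI/SNF subunits are the proteins of a family of chromatin remodelling complexes, and 30 of their genes were followed here. They were chosen by name, as the entries of the deposited count table whose gene symbol matches a list of BAF, PBAF and ncBAF subunits together with Bcl11a and Bcl11b. All 30 were found among the 55385 genes of the table, and 28 passed the filter on low counts. Actl6b and Dpf3 did not pass and are given by their values alone. RNA was sequenced from 10 mouse samples of an ovarian tumour cell line with mutant Arid1a and Pik3ca, spelled APV245 by the titles and APC245 by the design. Of the samples, 5 carry the label IL6 shRNA1 (genotype IL6 knockdown), a lentiviral short hairpin RNA against the cytokine gene Il6. The other 5 carry a non-mammalian control shRNA in the pLKO.1-puro vector (genotype WT). Both groups share the Arid1a and Pik3ca mutations, the puromycin vector, the label "no treatment" and a single batch. The labels do not say whether the 5 samples of a group came from separate cultures or animals, so the p-values measure the spread between these samples, which may be technical. They describe cells grown in DMEM with serum, whereas the series design speaks of subcutaneous tumours.

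SWI/SNF complexes use the energy of ATP to move or evict nucleosomes and so open DNA to transcription factors. Each complex holds a single ATPase, BRM (Smarca2) or BRG1 (Smarca4), on a shared core, and further subunits make it a canonical BAF, a PBAF or a non-canonical BAF (ncBAF) complex. Many positions can be filled by either of several paralogs, and Arid1a, the subunit whose loss marks clear cell and endometrioid ovarian cancers, competes for its position with Arid1b. The comparison asks whether these subunits, their paralog balance or their complex classes differ between libraries labelled IL6 shRNA1 and control libraries of a line that is already mutant for Arid1a.

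The letters before the start site of 3 subunits are shown as a description, and no result below rests on them. The subunits are Bcl11b as the one that was higher, Smarcc2 as a lower one, and Arid1a as the subunit mutated in this line. The letters come from RefSeq on GRCm38.p6, read 5′ to 3′ on the gene's strand, and hold only bases outside annotated exons. The windows are chr12:108003603-108003664 (minus strand) for Bcl11b, chr10:128458986-128459235 (plus strand) for Smarcc2 and chr4:133756770-133757019 (minus strand) for Arid1a. Arid1a has a further start, not shown, with its window at chr4:133753986-133754235. That window holds 33 CpG, 81.6% GC and 7 GC boxes, against 18 CpG, 61.2% GC and 1 GC box in the window shown. Capitals mark a GC box.
Bcl11b: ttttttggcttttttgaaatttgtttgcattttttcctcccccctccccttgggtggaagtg
Smarcc2: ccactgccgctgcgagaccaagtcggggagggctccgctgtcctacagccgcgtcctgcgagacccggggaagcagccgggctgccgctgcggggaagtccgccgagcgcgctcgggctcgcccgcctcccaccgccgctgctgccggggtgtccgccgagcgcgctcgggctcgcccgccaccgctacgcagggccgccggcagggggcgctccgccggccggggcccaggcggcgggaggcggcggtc
Arid1a: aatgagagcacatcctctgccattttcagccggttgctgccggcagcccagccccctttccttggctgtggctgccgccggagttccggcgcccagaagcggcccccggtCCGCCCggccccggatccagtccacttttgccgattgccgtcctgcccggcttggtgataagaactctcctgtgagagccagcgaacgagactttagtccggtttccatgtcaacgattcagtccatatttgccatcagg
The Bcl11b window was cut to 62 bases because the other 188 lie in an annotated exon. Windows of 250 bases before the start were found for 24 of the 30 genes, at 26 starts. Most of these windows overlap annotated exons, and those of Dpf2 and Pbrm1 do so over all 250 bases. These member windows were rich in CpG, with a median of 26.5 CpG against 6 over 32851 promoters, and a median GC content of 68.0% against 52.4%. The letters GGGCGG (GC box), on either strand, occurred in 21 of the 26 windows and in 32.7% of all promoters. The letters TTCNNNGAA, the palindrome that STAT factors downstream of cytokine receptors can bind, occurred in 1 member window, that of Bcl11a, and in 7.02% of all promoters. TGANTCA (AP-1) occurred in 1 window, that of Smarcb1, beside 6.75% of all promoters. CACGTG (E box) occurred in 3 windows beside 6.02%, and CCAAT in 5 beside 33.8%. A match of letters is a description and not a binding site.

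The count totals were 17905397 to 19934278 per library labelled IL6 shRNA1 and 18224751 to 22682346 per control library. Il6 itself was counted 9 to 48 times per library, at 1.07 to 2.18 CPM (counts scaled to library size) in the libraries labelled IL6 shRNA1 and 0.438 to 2.06 CPM in control. Its log2 fold change was 0.44 ± 0.36 (SE; edgeR adjusted p = 0.44), so the target did not show a lower level, and the groups are named by label throughout. In a principal component analysis 54.3% of the variance fell on the leading axis, where IL6 shRNA1 library 5 and control libraries 2 and 5 lay farthest out. Markers of other cell types were present. Of 20 leukocyte markers 19 were tested, 13 were higher and 0 lower, and the list summed to 3459 to 6904 CPM against 1307 to 3678 CPM in control. Of the muscle, keratinocyte and endothelial markers edgeR called 0, and their sums overlapped between the groups. The skeletal and cardiac muscle markers summed to 69.2 to 10059 CPM against 31.1 to 1184 CPM. Skin keratinocyte markers summed to 92.1 to 984 CPM against 21.8 to 104 CPM, with the top value in IL6 shRNA1 library 5, and the endothelial markers to 194 to 388 CPM against 155 to 223 CPM. The ovarian and mesothelial markers Wt1 (61.3 to 121 CPM over all libraries), Msln (10.6 to 49.8 CPM) and Krt8 (21.6 to 87.3 CPM) were detected, and the Mullerian epithelial marker Pax8 reached at most 0.107 CPM in a library. This list of 11 summed to 370 to 405 CPM against 152 to 368 CPM in control, which narrowly do not overlap. Of its 10 tested markers 8 had a positive log2 fold change and 2 a negative one (median 0.54), and edgeR called 1 higher. In bulk RNA of this kind, fewer cells of a type and less RNA per cell cannot be told apart.

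Of the 28 subunits tested, Bcl11b was higher and Smarcc2 and Bcl7a were lower in the libraries labelled IL6 shRNA1, and the other 25 did not pass (edgeR quasi-likelihood test, Benjamini-Hochberg adjusted p under 0.05 over 15064 genes). That is 7.14% of the tested subunits lower, where 6.16% of all genes tested were lower, and 3.57% higher, where 5.62% of all genes were higher. The number of calls is therefore near the background of the whole comparison. The groups did not overlap for 3 subunits, Bcl11b, Smarcc2 and Ss18, which is 10.7% of those tested beside 10.9% of all genes. Most members shared their sign: 25 of 28 log2 fold changes were negative (89.3%), against 52.1% of all genes tested. Their median was -0.18, against -0.01 for all genes. Other remodeller genes leaned the same way, with 43 of 58 negative (74.1%), and among the other SNF2 ATPases 7 of 8 were negative (87.5%) with a median of -0.18. The 3 with a positive value were Bcl11b, Bcl11a and Smarcd3, and 12 subunits had a negative value with an unadjusted p under 0.05 (42.9%, beside 15.7% of all genes).

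The 2 lower calls depended on single libraries. The count of lower subunits was 0 without IL6 shRNA1 library 2, control library 2 or control library 5, and 9 without IL6 shRNA1 library 1. It was 1 without IL6 shRNA1 library 3, 4 or 5 or control library 1 or 3. Of all genes tested, 454 of 15242, 415 of 15300 and 435 of 15280 were lower in the fits with 0, in that order. In the fit with 9 lower subunits, 1329 of 15254 genes were lower, and in those with 1, 514 to 823 genes were lower. With IL6 shRNA1 library 5 and control libraries 2 and 5 all left out, 0 were lower and Bcl11b was still higher, where 82 of 15373 genes were lower and 130 higher. With the mean level of the leukocyte markers as a covariate, which itself differed between the groups (-0.03 to 0.66 in the libraries labelled IL6 shRNA1 and -1.24 to 0.11 in control), 0 were lower and 0 higher. Only 16 of all 15064 genes were lower and 29 higher there, so 0 calls among the subunits says little. The negative values numbered 17 of 28 in that fit, with a median of -0.03. The part of leukocyte RNA in the lower levels was not tested further.

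**Figure D1:**
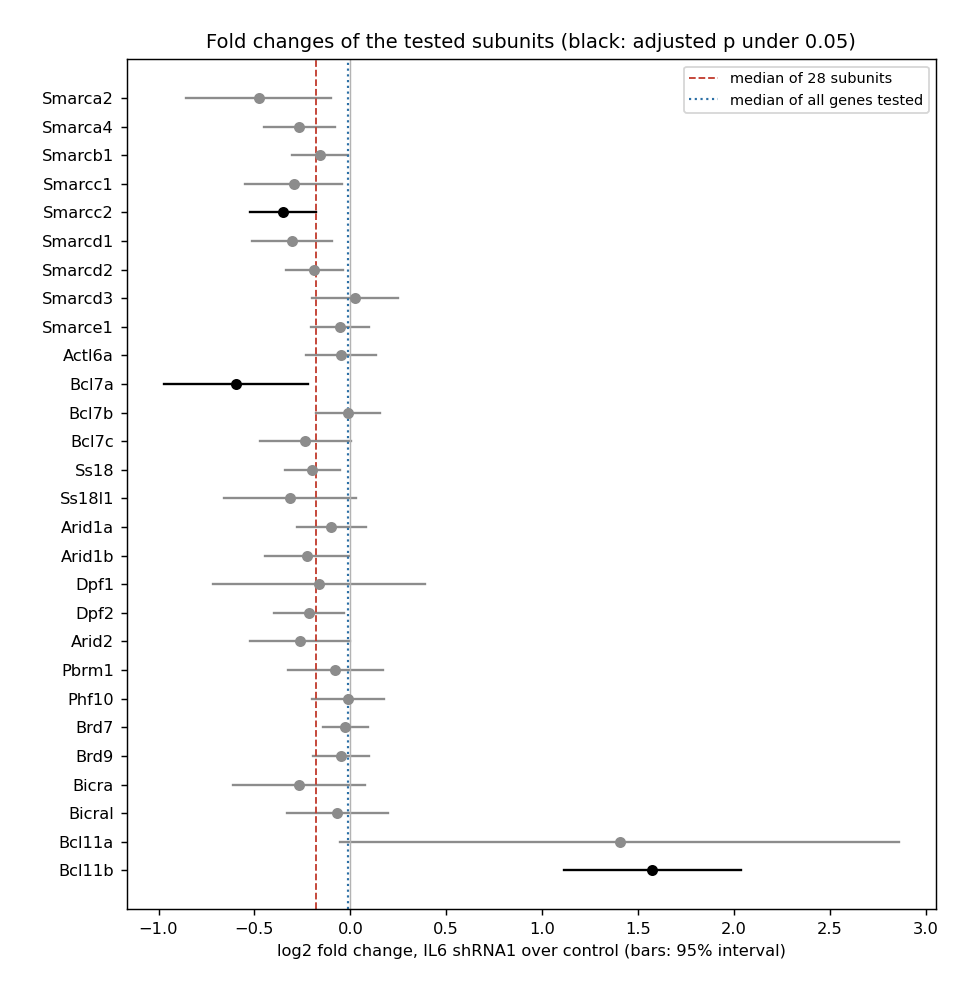
Log2 fold change of each tested subunit, IL6 shRNA1 over control (points, with 95% intervals from the edgeR fit, n = 5 libraries per group), grouped from the ATPases at the top to Bcl11b at the bottom. Black marks an adjusted p under 0.05: Smarcc2 and Bcl7a lie left of 0 and Bcl11b at 1.57, the dashed line at -0.18 is the median of the 28 subunits, and the dotted line at -0.01 that of all genes tested.

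Bcl11b and Bcl11a encode zinc finger transcription factors that have been found with BAF complexes, and Bcl11b is best known as a T cell identity factor. Bcl11b (ENSMUSG00000048251.15, chromosome 12, 107910403 to 108003602, minus strand, mm10/GRCm38) was at 10.2, 15.4, 11.6, 10.5 and 15.6 CPM in libraries 1 to 5 labelled IL6 shRNA1 and at 6.28, 3.65, 4.25, 3.93 and 3.03 CPM in control libraries 1 to 5. Every IL6 shRNA1 library lay above every control library. The mean was 12.6 ± 2.65 CPM against 4.23 ± 1.23 CPM (SD, n = 5 each), a log2 fold change of 1.57 ± 0.21 (SE; 95% interval 1.115 to 2.03; edgeR adjusted p = 0.0023). Its level was low, at 51 to 312 counts per library. With the leukocyte covariate the log2 fold change was 1.04. The adjusted p there was 0.11, and over all 22 alternatives it ran from 3.45e-10 to 0.114, with 21 under 0.05. On the log2(FPKM + 1) scale, which understates changes of low genes, the difference was 0.74.

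Markers of T cells and keratinocytes, both of which are known to express Bcl11b, were read beside it. Of 15 T cell markers tested, 13 had a positive log2 fold change, with a median of 0.81 over the list. By edgeR 0 were called and 7 had an unadjusted p under 0.05, and DESeq2 and limma-voom called 0. The list summed to 74.3 to 109 CPM in the libraries labelled IL6 shRNA1 and 58.4 to 88.4 CPM in control. The most abundant T cell marker, Trac, averaged 24.7 CPM against 29.5 CPM and was 1 of the 2 with a negative value. It weighs most in the list sum, and in control library 2 it was at 27.9 CPM where Cd3d was at 0.243 CPM. Cd3d, Cd247, Cd8b1, Cd2 and Cd3g had log2 fold changes of 1.38, 1.38, 1.37, 1.24 and 1.08 (edgeR adjusted p 0.10 to 0.24). The T cell receptor component Cd3e was at 1.66, 2.52, 3.49, 1.70 and 4.71 CPM against 2.59, 0.536, 2.10, 0.776 and 1.25 CPM in control, and the groups overlapped.

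All 4 keratinocyte markers tested had positive values, with a median of 2.79, and 0 were called by edgeR (4 had an unadjusted p under 0.05). Krt10 was at 144 CPM in IL6 shRNA1 library 5 and at 1.43 to 2.53 CPM in the other libraries of that label. Its control range was 1.27 to 2.43 CPM. Lor was at 59.9 CPM in library 5, at 0.428 to 1.201 CPM in the others and at 0.509 to 1.16 CPM in control. The high values of Krt10 and Lor thus came from library 5 alone. The basal keratin Krt14 was at 88.3, 95.2, 80.9, 94.4 and 341 CPM against 52.0, 23.6, 37.5, 99.3 and 15.007 CPM in control, so that only control library 4 reached the IL6 shRNA1 range. Krt5, which did not pass the filter on low counts, was at 21.3, 4.15, 1.201, 0 and 209 CPM against at most 0.297 CPM. IL6 shRNA1 library 5 held the top value of Krt14, of Krt5 and of Bcl11b. Of the T cell markers, Cd3e, Cd3g, Cd247, Cd4, Cd8a, Cd5 and Cd28 were also highest in that library. Cd3d, Cd8b1, Cd2, Lck and Trbc2 were highest in IL6 shRNA1 library 3, where Bcl11b was at 11.6 CPM. Trac was highest in control library 3, Tcf7 in control library 5 and Themis in IL6 shRNA1 library 2. Bcl11b was nearly as high in IL6 shRNA1 library 2 (15.4 CPM, against 15.6 CPM in library 5). In library 2 Krt5 was at 4.15 CPM and Krt14 at 95.2 CPM. The part of these cells in the Bcl11b result was not tested.

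Bcl11a (chromosome 11, 24078056 to 24174123, plus strand) was at 0.428, 0.741, 1.201, 1.17 and 2.22 CPM against 1.06, 0.0974, 0.687, 0.103 and 0.119 CPM in control. The groups overlapped, since control library 1 was above IL6 shRNA1 libraries 1 and 2. Its log2 fold change was 1.40 ± 0.66 (SE; 95% interval -0.05 to 2.86; edgeR adjusted p = 0.17) on 2 to 42 counts per library.

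**Figure D2:**
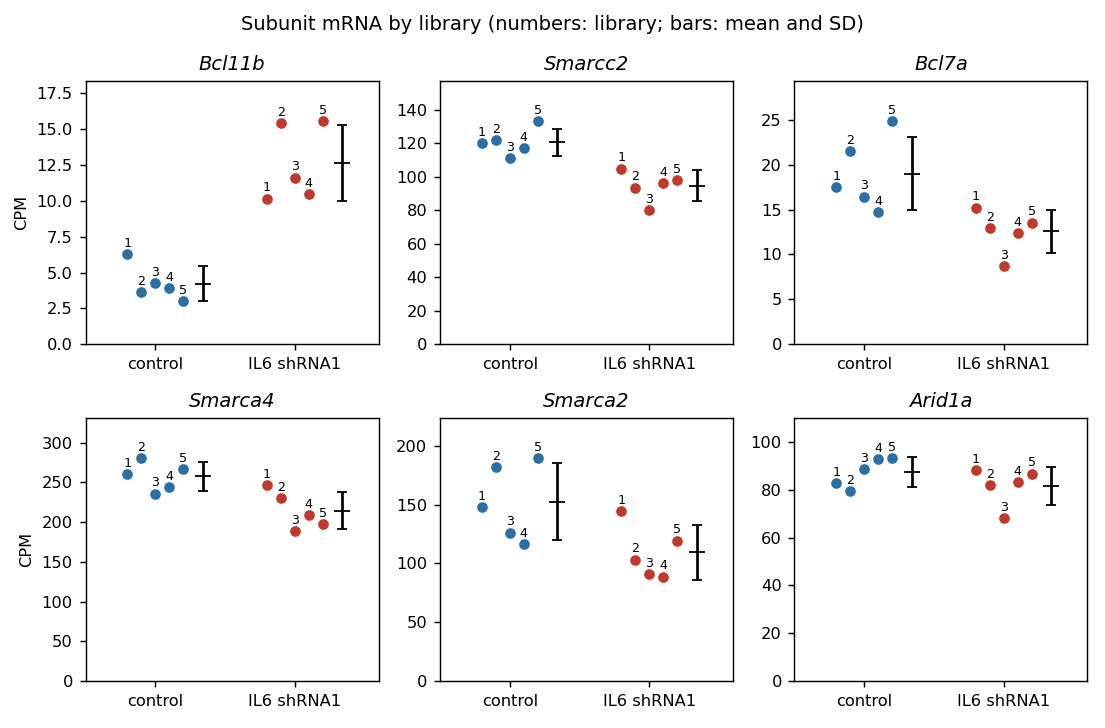
CPM in each library (points numbered by library, with the mean and SD as bars, n = 5 per group) for 6 subunits. Bcl11b lies between 10.2 and 15.6 CPM in the libraries labelled IL6 shRNA1 and between 3.03 and 6.28 CPM in control, and the groups of Smarcc2 do not overlap either.

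Levels per length of all annotated exons of a gene (FPKM) placed the subunits over a wide range. This length can exceed that of the transcript made, so the order of genes is approximate. Smarca4 was the top subunit at 39.6 FPKM in control and 33.1 FPKM in the libraries labelled IL6 shRNA1. Smarcc1 (24.9 and 20.4 FPKM), Smarcd2 (22.1 and 19.5 FPKM) and Smarcc2 (21.6 and 17.02 FPKM) came next. In CPM the order differed: in control Pbrm1 (155 CPM) and Smarca2 (153 CPM) lay above Smarcc2 (121 CPM) and Smarcd2 (79.6 CPM). At the bottom, Actl6b, the neuron-specific actin-like subunit, had 0 to 3 counts in any library, and Dpf3, of heart and muscle, had 0 to 17 counts with 17 in IL6 shRNA1 library 5. Both are near the limit of counting and got no fold change.

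**Figure D3:**
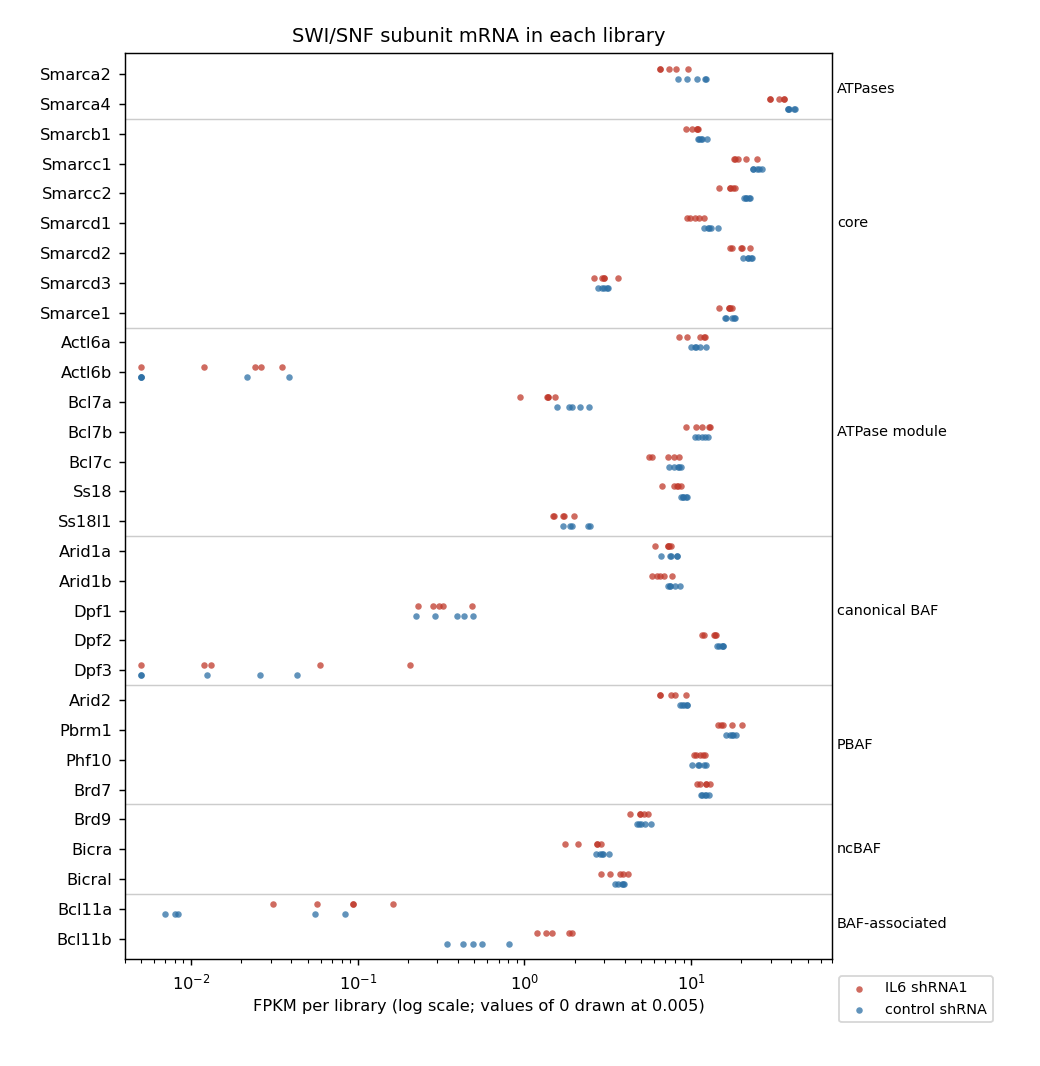
FPKM of each subunit in every library on a log axis (points, coloured by group), by class of subunit, with values of 0 drawn at 0.005. Smarca4 sits at the top near 33.1 to 39.6 FPKM on average, and Actl6b and Dpf3 at the bottom.

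Smarca4 and Smarca2 are the alternative ATPase motors. Smarca4 (chromosome 9, 21616169 to 21704230) was at 246, 230.2, 188, 209 and 198 CPM in the libraries labelled IL6 shRNA1 and 260.0, 281, 236, 244 and 267 CPM in control. The groups overlapped only through IL6 shRNA1 library 1, which was above control libraries 3 and 4. Its log2 fold change was -0.27 ± 0.08 (SE; 95% interval -0.45 to -0.08), and the edgeR adjusted p of 0.063 missed the threshold. Smarca2 (chromosome 19, 26605050 to 26778322) was at 145, 103, 90.96, 88.9 and 119 CPM against 148, 182, 126, 117 and 189.9 CPM, with a log2 fold change of -0.48 ± 0.17 (95% interval -0.85 to -0.10; edgeR adjusted p = 0.089). Its IL6 shRNA1 library 1 was above control libraries 3 and 4, and its IL6 shRNA1 library 5 above control library 4. DESeq2 placed both under the threshold, with adjusted p of 0.029 for Smarca4 and 0.048 for Smarca2, and over all alternatives their adjusted p ran from 0.0264 to 0.838 and from 0.0361 to 0.995.

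Of the 7 subunits listed as core, of which Smarcb1 and Smarce1 are absent from ncBAF, 1 was lower and 6 did not pass. Smarcc2 (BAF170; ENSMUSG00000025369.15, chromosome 10, 128459248 to 128490482, plus strand), one of the SANT and SWIRM domain scaffolds, was at 105, 93.6, 79.9, 96.4 and 98.0 CPM in the libraries labelled IL6 shRNA1 and 120.0, 122, 111, 117 and 133 CPM in control. Every IL6 shRNA1 library lay below every control library, on 1463 to 2829 counts. The mean was 94.6 ± 9.21 CPM against 121 ± 8.15 CPM (SD, n = 5 each), a difference of -21.6% and a log2 fold change of -0.35 ± 0.08 (SE; 95% interval -0.53 to -0.18; edgeR adjusted p = 0.019). The call was lost without IL6 shRNA1 library 2 (adjusted p = 0.055), control library 2 (0.053) or control library 5 (0.056). With the leukocyte covariate its log2 fold change was -0.21 (adjusted p = 0.51), and over all 22 alternatives the adjusted p ran from 0.00198 to 0.51.

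Its paralog Smarcc1 (BAF155) was at 205, 166, 141, 142 and 146 CPM against 188, 219.7, 173, 182 and 218 CPM, with a log2 fold change of -0.29 ± 0.12 (edgeR adjusted p = 0.11). Here IL6 shRNA1 library 1 lay above 3 control libraries. Among the mutually exclusive SMARCD subunits, Smarcd1 averaged 42.7 CPM against 52.7 CPM (-0.30 ± 0.10, edgeR adjusted p = 0.062) and Smarcd2 69.8 CPM against 79.6 CPM (-0.19 ± 0.07, adjusted p = 0.090). Smarcd3, the form known from heart and muscle, averaged 15.6 CPM against 15.4 CPM (0.02 ± 0.10, adjusted p = 0.90), but 48.2% of its 5120 exonic bases overlap exons of other genes, so its counts are uncertain. Smarcb1, the subunit lost in rhabdoid tumours, averaged 82.4 CPM against 91.9 CPM (-0.16 ± 0.07, adjusted p = 0.13). Smarce1 averaged 111 CPM against 115 CPM (-0.05 ± 0.07, adjusted p = 0.64).

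The ATPase module holds actin-like, BCL7 and SS18 proteins that sit on the motor, and 1 of its 6 tested members was lower. Bcl7a (ENSMUSG00000029438.9, chromosome 5, 123343834 to 123374992, plus strand) was at 15.2, 12.9, 8.68, 12.4 and 13.5 CPM in the libraries labelled IL6 shRNA1 and 17.5, 21.5, 16.5, 14.7 and 24.9 CPM in control. The groups overlapped, as IL6 shRNA1 library 1 was above control library 4. The mean was 12.6 ± 2.41 CPM against 19.01 ± 4.10 CPM (SD, n = 5 each), a difference of -33.8% and a log2 fold change of -0.60 ± 0.17 (SE; 95% interval -0.97 to -0.22; edgeR adjusted p = 0.047). The call stayed under the threshold in 9 of 22 alternatives, and its adjusted p ran from 0.015 to 0.818.

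The other BCL7 genes did not pass: Bcl7b averaged 27.6 CPM against 27.8 CPM (log2 fold change -0.01 ± 0.08, edgeR adjusted p = 0.93) and Bcl7c 50.2 CPM against 59.1 CPM (-0.24 ± 0.11, adjusted p = 0.16). Ss18, the gene fused in synovial sarcoma, was at 85.1, 82.2, 83.2, 84.1 and 70.3 CPM against 88.2, 96.4, 90.9, 93.004 and 96.4 CPM. Its groups did not overlap, but the edgeR adjusted p was 0.068 for a log2 fold change of -0.20 ± 0.07. Its paralog Ss18l1 averaged 7.30 CPM against 9.09 CPM (-0.31 ± 0.16, adjusted p = 0.19), and Actl6a, the actin-like subunit of dividing cells, 41.3 CPM against 42.7 CPM (-0.05 ± 0.08, adjusted p = 0.73).

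None of the 4 tested subunits of canonical BAF was called by edgeR, and Arid1b and Dpf2 were the 2 with an unadjusted p under 0.05. DESeq2 and limma-voom called 0 of the canonical BAF, PBAF and ncBAF subunits as well. Arid1a (ENSMUSG00000007880.16, chromosome 4, 133679008 to 133756769, minus strand) was at 88.2, 82.2, 68.1, 83.3 and 86.9 CPM in the libraries labelled IL6 shRNA1 and 83.0, 79.4, 88.9, 92.9 and 93.5 CPM in control. The groups overlapped. The mean was 81.7 ± 8.02 CPM against 87.5 ± 6.17 CPM (SD, n = 5 each), with a log2 fold change of -0.10 ± 0.08 (SE; 95% interval -0.28 to 0.08; edgeR adjusted p = 0.44). These counts cover the whole gene and do not separate mutated or deleted exons, nor tumour cells from other cells, so 1247 to 2070 counts per library say nothing of intact Arid1a transcripts.

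Arid1b, the paralog that ARID1A-mutant cells depend on, was at 102, 85.7, 71.7, 75.3 and 84.8 CPM against 105, 106, 86.0, 92.7 and 102 CPM in control. IL6 shRNA1 library 1 lay inside the control range and the other 4 below its lowest value. Its log2 fold change was -0.23 ± 0.10 (SE; 95% interval -0.45 to -0.01), which missed the threshold (edgeR adjusted p = 0.15). The PHD finger subunit Dpf2 averaged 84.9 CPM against 98.5 CPM (-0.22 ± 0.08, adjusted p = 0.11), and its neuronal paralog Dpf1 1.74 CPM against 1.95 CPM on 22 to 52 counts (-0.16 ± 0.25, adjusted p = 0.70).

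Of the 4 PBAF subunits, which define the form with several bromodomains, 0 were called by edgeR and Arid2 alone had an unadjusted p under 0.05. Pbrm1, the polybromo subunit lost in many kidney cancers, was at 187, 153, 125, 128 and 143 CPM against 158, 167, 135, 149 and 169 CPM. Its groups overlapped, with IL6 shRNA1 library 1 the top value of all 10, and the log2 fold change was -0.08 ± 0.11 (95% interval -0.32 to 0.17; edgeR adjusted p = 0.68). Arid2, the ARID subunit of PBAF, averaged 81.7 CPM against 98.0 CPM (-0.26 ± 0.12, adjusted p = 0.16). Phf10 averaged 55.3 CPM against 55.8 CPM (-0.01 ± 0.09, adjusted p = 0.94) and Brd7 62.5 CPM against 63.6 CPM (-0.03 ± 0.05, adjusted p = 0.78).

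The ncBAF subunits, found in the smallest form, also gave 0 calls by edgeR and 0 with an unadjusted p under 0.05. The bromodomain subunit Brd9 averaged 34.5 CPM against 35.7 CPM (log2 fold change -0.05 ± 0.07, edgeR adjusted p = 0.66). The scaffold Bicra (GLTSCR1) averaged 19.4 CPM against 23.3 CPM (-0.27 ± 0.16, adjusted p = 0.26), and its paralog Bicral 24.7 CPM against 25.9 CPM (-0.07 ± 0.12, adjusted p = 0.74).

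The balance of paralogs was read as a ratio within each library, which no scaling changes. Of 16 pairs listed 14 were tested, 0 passed after adjustment over the 14 pairs (exact two-sided permutation test over every regrouping of 5 against 5), and 4 had an unadjusted p under 0.05. The FPKM ratio of Bicra to Bicral was 0.671 ± 0.0475 against 0.775 ± 0.0478 in control (SD, n = 5 each), a log2 change of -0.21 ± 0.06 with an exact permutation p = 0.0079, the smallest these groups can give, and an adjusted p of 0.11. With 14 pairs, a single pair cannot reach a lower adjusted p than this. The groups of that ratio did not overlap, by a narrow margin. The other 3 were Smarcd2 to Smarcd3 (-0.21 ± 0.11, exact p = 0.032, adjusted 0.14), Bcl7b to Bcl7c (0.22 ± 0.09, exact p = 0.032, adjusted 0.14) and Bcl7a to Bcl7b (-0.58 ± 0.24, exact p = 0.040, adjusted 0.14). Smarcd2 to Smarcd3 stood at 4.83 in IL6 shRNA1 library 5 and at 6.55 to 7.45 in the other libraries of that label. Exon overlap with other genes makes the Smarcd3 counts uncertain, and 11.3% of the exonic bases of Bicral overlap another gene. The share was 12.7% for Smarcd1, 11.6% for Actl6a and 9.56% for Phf10, and at most 2.4% for the remaining subunits.

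The pairs of most interest for an Arid1a mutant line did not pass. Arid1a to Arid1b stood at 1.08 ± 0.0996 against 0.987 ± 0.139 in control (log2 change 0.13 ± 0.11, exact permutation p = 0.25, adjusted 0.44). Smarca4 to Smarca2 stood at 4.41 ± 0.688 against 3.82 ± 0.595 (0.21 ± 0.14, exact permutation p = 0.20, adjusted 0.40), so that Smarca4 made up 81.3% of ATPase FPKM against 79.0%. That share depends on the exon lengths used, 6475 bases for Smarca4 and 14269 for Smarca2. In CPM, Smarca4 averaged 214 and Smarca2 109 in the libraries labelled IL6 shRNA1, and 258 and 153 in control. Smarcc1 to Smarcc2 stood at 1.198 against 1.15 (0.05 ± 0.09, exact permutation p = 0.55, adjusted 0.68). A p that misses the threshold does not show that the ratios were equal.

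**Figure D4:**
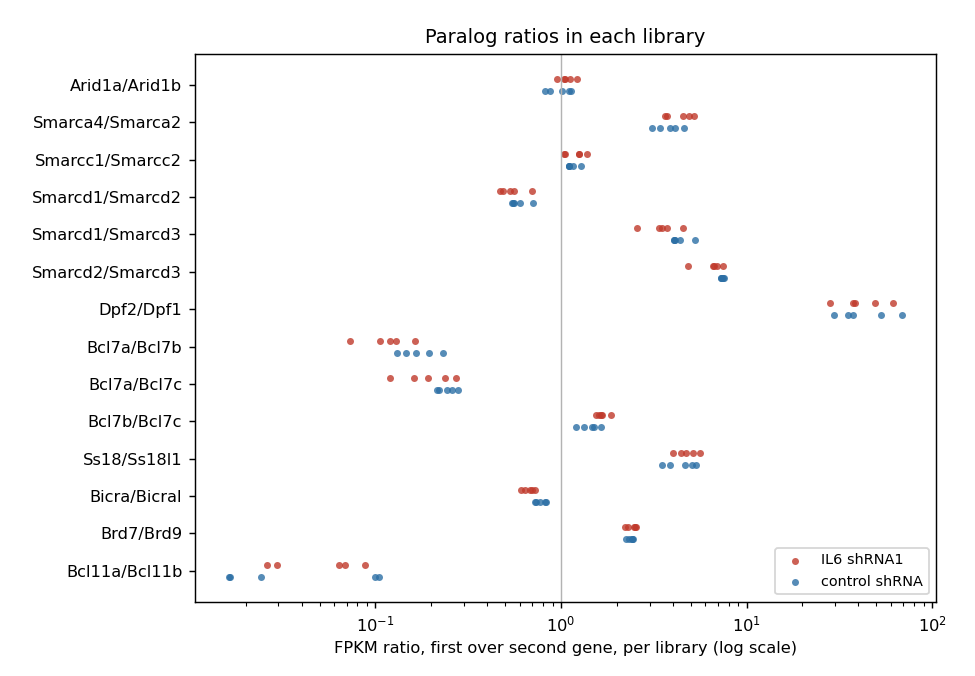
FPKM ratio of the first over the second gene of each of 14 tested paralog pairs, on a log axis, with 1 point per library (5 per group, coloured by group). The groups of Bicra to Bicral just separate, while those of Arid1a to Arid1b and Smarca4 to Smarca2 overlap.

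Summed by class, with no test, the FPKM of all 30 subunits was 266 ± 13.99 (246 to 280.1) in the libraries labelled IL6 shRNA1 and 301 ± 6.11 (290.4 to 306) in control (SD, n = 5 each), a difference of -11.6%, and the groups did not overlap on this scale. Summed as CPM the groups did overlap, at 1678 to 2066 CPM against 1939 to 2251 CPM in control, so the separation depended on the scale. The ATPases summed to 40.7 ± 3.93 FPKM against 50.2 ± 2.84 FPKM (-18.9%) and the core to 97.6 ± 5.49 FPKM against 113 ± 2.55 FPKM (-13.9%). Canonical BAF subunits summed to 27.2 ± 1.46 FPKM against 30.8 ± 0.402 FPKM (-11.8%). The differences were -8.42% for the ATPase module, -6.93% for ncBAF and -5.27% for PBAF, and in all 3 the ranges overlapped (34.6 to 45.2 FPKM against 42.8 to 46.5 FPKM, 9.86 to 11.98 FPKM against 11.29 to 12.04 FPKM, and 44.2 to 53.0 FPKM against 48.6 to 51.1 FPKM). In CPM the ATPases, core and canonical BAF overlapped between the groups, and the ATPase module did not (195 to 236 CPM against 238 to 270 CPM). Bcl11a and Bcl11b together went the other way, at 1.65 ± 0.348 FPKM against 0.558 ± 0.208 FPKM. The share of PBAF in the total was 17.8% against 16.6% and that of the ATPases 15.3% against 16.7%.

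The subunits did not move alike in every library. With each gene centred on its mean over libraries, the median subunit stood at 0.07, -0.04, -0.17, -0.13 and -0.11 (log2 CPM) in libraries 1 to 5 labelled IL6 shRNA1 and at 0.03, 0.15, 0.03, 0.03 and 0.18 in control. IL6 shRNA1 library 1 lay inside the control range, and library 3 held the lowest value of 12 subunits. Control libraries 5 and 2 held the highest value of 10 and 7 subunits. These are 2 of the 3 libraries farthest out on the leading axis, and they had the lowest leukocyte scores (-1.24 in library 2 and -0.91 in library 5). The balance of long against short transcripts (by length of annotated exons) also varied, from -0.27 in IL6 shRNA1 library 3 to 0.22 in library 1 (log2), and with it as a covariate, an alternative chosen after seeing the data, 4 subunits were lower and 1 higher. Of all 15064 genes tested, 1322 were lower and 960 higher in that fit.

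**Figure D5:**
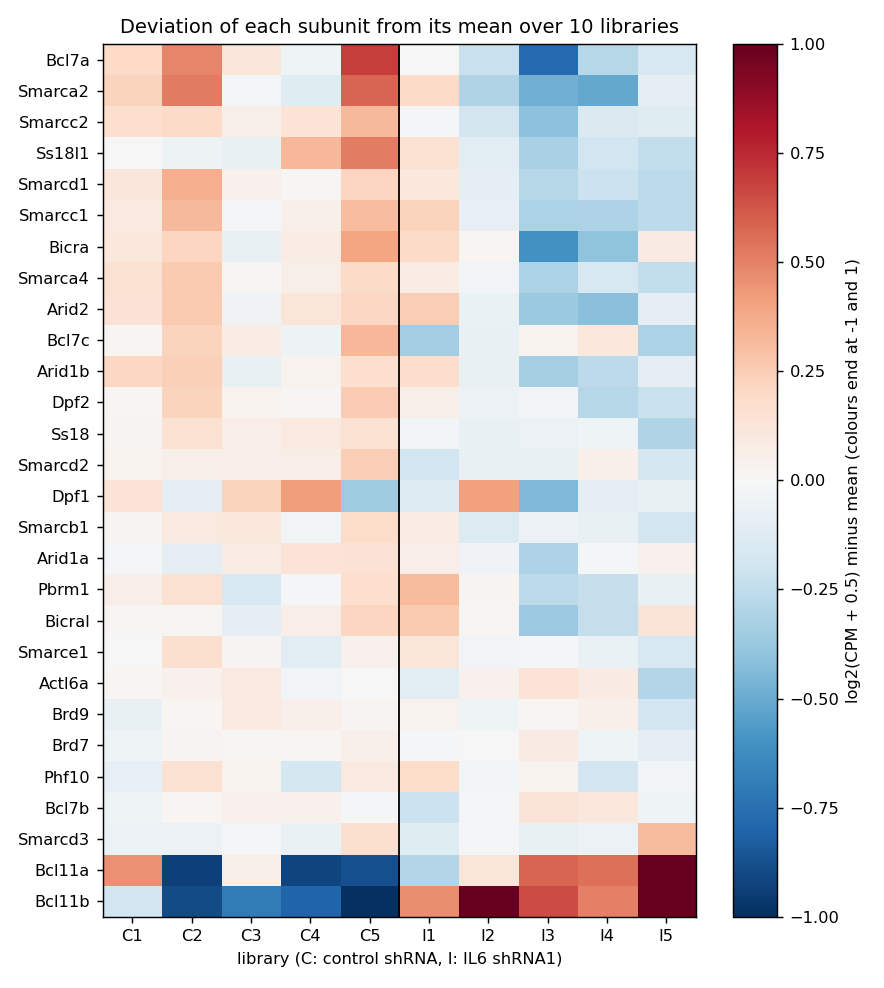
Log2(CPM + 0.5) of each of the 28 tested subunits in each of the 10 libraries (C, control; I, IL6 shRNA1), centred on the gene's mean over libraries (colour scale, ending at -1 and 1). IL6 shRNA1 library 3 holds the lowest value of 12 subunits and control library 5 the highest of 10.

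The other remodeller families give the setting of these values. Of 62 genes of the ISWI, CHD and NuRD, INO80, SRCAP and TIP60, and other SNF2 families, 58 were tested, 3 were higher and 4 were lower, with a median of -0.12. The median was -0.06 for ISWI, -0.11 for CHD and NuRD, -0.11 for INO80, SRCAP and TIP60, and -0.18 for the other SNF2 ATPases. The NuRD helicase Chd3 averaged 332 ± 39.8 CPM where control averaged 501 ± 84.4 CPM (SD over 5 libraries; log2 fold change -0.60 ± 0.12 SE, edgeR adjusted p = 0.013). The ISWI partner Baz1a averaged 86.7 ± 6.40 CPM against 65.6 ± 6.47 CPM (0.40 ± 0.08, adjusted p = 0.013). The methyl-DNA binding Mbd2 (0.21, adjusted p = 0.026) and Ino80c of the INO80 complex (0.32, adjusted p = 0.032) were higher, and the acetyltransferase Kat5 (-0.30, adjusted p = 0.029) and the deacetylase Hdac2 (-0.29, adjusted p = 0.041) lower. Atrx and Rbbp7 were listed at 0 in every library, and whether this came from the counting or from absent RNA was not tested. The SWI/SNF subunits, with a median of -0.18, and these 58 genes were not tested against each other.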

How the data were processed

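RNA from 10 mouse samples, 5 labelled IL6 shRNA1 and 5 control, was prepared as total RNA with RNeasy and NEBNext Ultra II, per the labels' protocols. The submitters' processing notes name STAR 2.7.0f, Subread 1.6.4, Trim Galore 0.6.6, FastQC 0.11.9, SAMtools 1.11 and R 4.0.4 with mm10 and GRCm38. The strand setting was not given in the sources used here, nor was the annotation release. Raw counts per gene were deposited by the authors, with FPKM values that equal the deposited count per gene length and library total. Totals were 17905397 to 22682346 counts per library.

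Counts were tested with edgeR 4.0.16 (TMM, filterByExpr, robust quasi-likelihood, group only), with Benjamini-Hochberg adjustment over 15064 genes and a threshold of 0.05. CPM uses TMM-scaled library sizes. FPKM was used for levels, class sums, printed ratios and the FPKM alternatives below. Paralog ratios were tested on log2(count + 0.5) by exact permutation. Alternatives used DESeq2 1.42.0, limma 3.58.1 on counts (voom) and on log2(FPKM + 1) and log2(FPKM + 0.1), other scalings and filters, a replicate block, covariates, and libraries left out. The test was checked on simulated data.

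The members and gene lists were chosen with earlier results of these data known. By rule, every subunit is accounted for, with full values for called subunits, members of passing paralog pairs, Arid1a, Arid1b, Smarca4, Smarca2 and Pbrm1, and at most 6 called remodellers by smallest p. Values given in full for other subunits, and the choice of the T cell and keratinocyte markers named, were added after their values were seen.

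Results of the marker lists not given in the report are as follows. Of 5 B cell and plasmacytoid dendritic cell markers tested, 0 were called by edgeR, 3 had an unadjusted p under 0.05, DESeq2 called 3 and voom 2. Of 4 neuronal markers 1 (Syt1) was lower, with Snap25 at 0 in all libraries for a cause not tested. Of 4 keratinocyte markers DESeq2 called 1 and voom 0. By edgeR, of 10 muscle markers 0 were called (6 unadjusted, DESeq2 4, voom 0) and of 8 endothelial markers 0 (3 unadjusted, DESeq2 3, voom 0). Of 8 fibroblast and pericyte markers 2 were lower, the 1 fat marker tested was not called, and of 10 ovarian and mesothelial markers 1 (Upk3b) was higher.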

Additional observations from a re-analysis of the deposited data

Results flagged for a closer look

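In 88 groups of 5 libraries, 5 had 1 library far from the other 4 by Dixon's ratio at its 95% critical value, where chance gives about 5% of groups. All 5 were libraries numbered 5. Smarcd2 was at 88.5 CPM in control library 5, with the others at 76.2 to 78.0 CPM. Smarcd3 was at 19.4 CPM in IL6 shRNA1 library 5 (others 14.2 to 15.2 CPM) and at 17.3 CPM in control library 5 (others 14.7 to 15.2 CPM). Ss18 was at 70.3 CPM in IL6 shRNA1 library 5 (others 82.2 to 85.1 CPM), and Dpf3 at 0.900 CPM there (others 0 to 0.247 CPM). IL6 shRNA1 library 5 and control library 5 are both among the 3 farthest out on the leading principal component.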

How the results depend on the processing

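Bcl11b stayed higher in every alternative but the leukocyte covariate (0 higher), and the count of higher subunits was 1 in all others. The count of lower subunits, 2, was 1 with RLE scaling, voom or the replicate block, 6 with DESeq2, 4 with limma on either FPKM scale or the transcript-length covariate, 0 with the leukocyte covariate, without the 3 farthest libraries or at an adjusted p of 0.01, 3 with no scaling, and 0 to 9 when 1 library was left out. Genes called, 1775, numbered 3027 with DESeq2, 755 with the replicate block, 45 with the leukocyte covariate, 212 without the 3 libraries, 381 at 0.01, and 864 to 2774 leaving out 1 library. Genes lower, 928 of 15064 in the main fit, numbered 1374 with DESeq2, 878 to 893 on the FPKM scales and 1322 with the transcript-length covariate. They numbered 860 with RLE scaling, 950 with voom, 406 with the replicate block and 846 with no scaling. Same-numbered libraries did not pair (correlations -0.28, -0.07, 0.11, 0.27 and -0.27). Paralog ratios past the threshold were 0 throughout, which says nothing of stability, since a single pair among 14 cannot reach an adjusted p below 0.11 with all 10 libraries. Log2 changes that turned sign, cause not tested, were as follows. Bcl7b and Phf10 were at 0.0028 and 0.0032 (DESeq2), 0.0026 and 0.0032 (RLE), 0.0040 and 0.0040 (1 CPM filter) and 0.0092 and 0.0069 (no filter), and Phf10 at 0.0041 (transcript length). With the leukocyte covariate Bicra was at 0.034, Brd7 0.016, Smarcc1 0.046, Bcl11a -0.85, Smarce1 0.093, Pbrm1 0.19, Arid2 0.0035, Phf10 0.20, Bicral 0.13 and Dpf2 0.0049. Without the 3 libraries Actl6a was at 0.0084, Smarcd3 -0.022, Brd7 0.013, Smarce1 0.030, Pbrm1 0.013, Phf10 0.078, Dpf2/Dpf1 0.31 and Bcl11a/Bcl11b -0.44, and Bcl11a/Bcl11b was -0.93 on log2(FPKM + 0.1). Leaving out 1 library gave Actl6a -0.079 to 0.016, Smarcd3 -0.060 to 0.078, Bcl7b -0.035 to 0.052, Phf10 -0.057 to 0.043, Bicral -0.13 to 0.021, Smarcc1/Smarcc2 -0.0026 to 0.10 and Dpf2/Dpf1 -0.19 to 0.12. Bcl11a gave no value under the 1 CPM filter. Depth limits Bcl11a, Dpf1, Actl6b and Dpf3, which had at most 52 counts.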
